A study of Mus musculus with 36 samples.

Results

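Cyp2c55, Cyp2c65, Cyp2c66, Cyp2c53-ps, Cyp2c29, Cyp2c37, Cyp2c50 and Cyp2c54 are the 8 genes of the mouse Cyp2c family described here, and they were listed by name as those that phenobarbital (PB) induces in liver. All 8 are in the RNA-seq table of 13862 genes, and all 8 passed its filter on low values. Beside them stand the 46 DNase I hypersensitive sites (DHSs), of 98170 in the genome, that lie between chr19:38902465 and chr19:39464396 (mm10) around 5 of the genes. CYP2C enzymes are heme monooxygenases of the endoplasmic reticulum that take electrons from cytochrome P450 oxidoreductase and oxidize drugs, steroids and polyunsaturated fatty acids such as arachidonic and linoleic acid. In hepatocytes PB activates the nuclear receptor CAR, which binds DNA with RXRα at direct repeats of a short half-site and turns on genes of drug metabolism, of which Cyp2b10 is the best known.

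The livers came from male mice given plain drinking water (vehicle) or water with PB at 0.05% (wt/vol) for 91 d. C57BL/6 mice, an inbred strain, were 9 to 11 weeks old at the start, and B6C3F1 mice, a first-generation cross of a C57BL/6 mother and a C3H/He father, were 4 to 5 weeks old, came from another vendor and belonged to a separate study, so strain, age, vendor and study cannot be told apart. Each strain had 4 vehicle mice (1, 2, 3 and 5) and 5 PB-treated mice (1 to 5), named by the last digit of the animal number within its group, and vehicle and PB-treated mice are different animals. RNA-seq and DNase-seq came from the same livers, with 23.8 to 30.3 M reads in genes and 7.01 to 58.1 M reads in DHSs per mouse (M for a factor of 1e6), the fewest DNase-seq reads in B6C3F1 vehicle mouse 3.

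RNA levels are counts per 1e6 reads (CPM) after TMM scaling, and values of mice are always listed in the order of their numbers. Every log2 fold change (log2 FC) for RNA is on the log2(CPM + 0.1) scale, which understates the change of genes with few reads, and a gene was called at |log2 FC| ≥ 0.58 with a Benjamini-Hochberg FDR ≤ 0.01 over 13838 genes in limma. In bulk liver, more cells with the RNA and more RNA per cell cannot be told apart.

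With PB, all 8 genes were higher than with vehicle in both strains. Cyp2c66 went from 1 read in 4 vehicle mice to 177 or more reads in every PB-treated mouse, Cyp2c55 and the pseudogene Cyp2c53-ps were 19.3 to 20.3 times as high, and Cyp2c29, already among the most abundant RNAs of the liver, was 3.02 to 3.37 times as high. Cyp2c37, Cyp2c50 and Cyp2c54 stood between them with ratios of 3.52 to 7.63. The genes had been listed as inducible, so these directions describe the members and nothing more is read from their count.

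Cyp2c55, whose enzyme hydroxylates arachidonic acid, had 14.0, 17.4, 23.3 and 14.7 CPM in the C57BL/6 vehicle mice and 243, 449, 243, 332 and 415 CPM in the PB-treated ones. In B6C3F1 the vehicle mice had 23.5, 26.2, 26.3 and 18.6 CPM and the PB-treated mice 501, 417, 583, 463 and 442 CPM. The lowest PB-treated mouse of either strain, C57BL/6 mouse 1, was far above the highest vehicle mouse, and the C57BL/6 PB-treated mice spread over a wider range than the B6C3F1 ones. The mean was 19.4 times the vehicle mean in C57BL/6 (log2 FC 4.25, SE 0.20, FDR 4.29e-09) and 20.3 times in B6C3F1 (log2 FC 4.34, SE 0.20, FDR 2.43e-09).

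Cyp2c66, an enzyme gene best known from the gut, was nearly silent without PB. In C57BL/6 it had 1 read in vehicle mouse 1 and 0 in the other 3 vehicle mice, and the PB-treated mice had 7.08, 11.8, 7.04, 15.9 and 15.9 CPM, from 202, 329, 177, 407 and 383 reads. In B6C3F1 it again had 1 read in vehicle mouse 1 and 0 in the other 3, and 33.0, 24.5, 30.8, 23.8 and 26.3 CPM in the PB-treated mice, from 874, 655, 857, 689 and 731 reads. Each PB-treated B6C3F1 mouse was above each PB-treated C57BL/6 mouse, and C57BL/6 mice 1 and 3 were the lowest of all 10.

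Summed over the mice of a strain, Cyp2c66 reads rose from 1 to 1498 in C57BL/6, a ratio in CPM of 1196 with a 95% counting interval of 214 to 47285. In B6C3F1 they rose from 1 to 3806, a ratio of 3166 with an interval of 568 to 125063. The intervals cover counting error only, since PCR copies of a molecule are not independent, and their width comes from the single vehicle read. The fitted log2 FC was 6.66 in C57BL/6 (FDR 1.22e-14) and 8.00 in B6C3F1 (FDR 2.51e-16), and it depends on the pseudocount, with 3.56 and 4.82 at a pseudocount of 1 CPM and 9.67 and 11.02 in edgeR on the recovered reads.

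Cyp2c65, the neighbour of Cyp2c66 and likewise known from the gut, was also nearly absent with vehicle. Its reads were 0, 1, 2 and 3 in the C57BL/6 vehicle mice and 29, 82, 31, 64 and 61 in the PB-treated ones, which is 1.02, 2.95, 1.23, 2.50 and 2.53 CPM with PB. In B6C3F1 the vehicle mice had 2, 1, 1 and 1 reads and the PB-treated mice 79, 30, 90, 69 and 60 reads, or 2.98, 1.12, 3.24, 2.38 and 2.16 CPM. No vehicle mouse had more than 3 reads and no PB-treated mouse fewer than 29, so the groups do not overlap, while the 2 strains overlap with PB. Over summed reads the ratio was 35.5 in C57BL/6 (95% counting interval 16.1 to 97.7) and 54.6 in B6C3F1 (23.1 to 169). The fitted log2 FC was 3.70 in C57BL/6 (FDR 1.76e-07) and 4.04 in B6C3F1 (FDR 3.20e-08), with 1.47 and 1.66 at a pseudocount of 1 CPM.

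Cyp2c53-ps is a pseudogene, with 9 exons and no coding part in RefSeq. It had 5.92, 6.18, 7.49 and 8.53 CPM in the C57BL/6 vehicle mice and 118, 142, 121, 140.1 and 157 CPM in the PB-treated ones. In the B6C3F1 mice it had 7.05, 12.0, 6.69 and 6.88 CPM with vehicle and 174, 139, 178, 139 and 165 CPM with PB. Apart from B6C3F1 vehicle mouse 2, the highest vehicle mouse, the vehicle values lie close together, and every PB-treated mouse is above 100 CPM. The ratio of the means was 19.3 in C57BL/6 (log2 FC 4.26, SE 0.16, FDR 1.05e-10) and 19.5 in B6C3F1 (log2 FC 4.30, SE 0.16, FDR 5.23e-11), close to the ratios of Cyp2c55.

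Cyp2c29 encodes an abundant hepatic epoxygenase of arachidonic acid. The C57BL/6 vehicle mice had 1751, 1747, 2051 and 1949 CPM and the PB-treated mice 6554, 7081, 6274, 5464 and 6198 CPM. The B6C3F1 vehicle mice had 2769, 2756, 2533 and 2160.1 CPM and the PB-treated mice 7184, 7612, 7258, 7659.8 and 8907 CPM. Every B6C3F1 mouse was above every C57BL/6 mouse of the same treatment, and PB-treated B6C3F1 mouse 5 was the highest of all 18. Cyp2c29 rose less than any other member as a ratio (log2 FC 1.75, SE 0.08, FDR 6.56e-12 in C57BL/6 and log2 FC 1.60, SE 0.08, FDR 2.70e-11 in B6C3F1).

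Cyp2c37, Cyp2c50 and Cyp2c54 encode closely related enzymes that oxidize arachidonic and linoleic acid and lie together, far beyond Cyp2c29. Cyp2c37 had 360.1, 273, 386 and 370.5 CPM in the C57BL/6 vehicle mice and 1529.5, 1377, 1221, 1508 and 1589.6 CPM in the PB-treated ones. In B6C3F1 it had 215, 249, 124 and 173 CPM with vehicle and 1415, 1361, 1483, 1493 and 1504 CPM with PB. The B6C3F1 vehicle mice were all below the C57BL/6 vehicle mice, B6C3F1 vehicle mouse 3 lowest, whereas the PB-treated mice of both strains reached the same range. The ratio of the means was 4.16 in C57BL/6 (log2 FC 2.06, SE 0.16, FDR 7.65e-07) and 7.63 in B6C3F1 (log2 FC 2.98, SE 0.16, FDR 5.75e-09).

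Cyp2c50 had 1022.3, 798, 1011 and 980.0 CPM in the C57BL/6 vehicle mice and 3089, 3612, 3019, 3408 and 3642 CPM in the PB-treated ones. In B6C3F1 the vehicle mice had 805, 764, 564 and 722 CPM and the PB-treated mice 3314, 2854, 3688, 3287 and 3191 CPM. Vehicle and PB-treated mice were far apart in both strains, and B6C3F1 vehicle mouse 3 was again the lowest. The ratio was 3.52 in C57BL/6 (log2 FC 1.82, SE 0.10, FDR 6.72e-10) and 4.58 in B6C3F1 (log2 FC 2.20, SE 0.10, FDR 3.60e-11).

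Cyp2c54 had 403, 295, 373 and 359 CPM in the C57BL/6 vehicle mice and 1433, 1768, 1396, 1603 and 1818 CPM with PB. The B6C3F1 vehicle mice had 363, 363, 204 and 309 CPM and the PB-treated mice 2045, 1743, 2317, 1937 and 1981 CPM. As with Cyp2c37 and Cyp2c50, B6C3F1 vehicle mouse 3 was the lowest of the 18 mice. In this liver the summed CPM of 8 pericentral markers (5998.5, against 8863 to 9328 in the other 3 B6C3F1 vehicle mice) and that of 8 periportal markers (9544, against 10673 to 12265.0) were both the lowest of the 18 mice as well. The ratio of the means was 4.49 in C57BL/6 (log2 FC 2.17, SE 0.15, FDR 2.12e-07) and 6.47 in B6C3F1 (log2 FC 2.73, SE 0.15, FDR 8.45e-09).

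**Figure D1:**
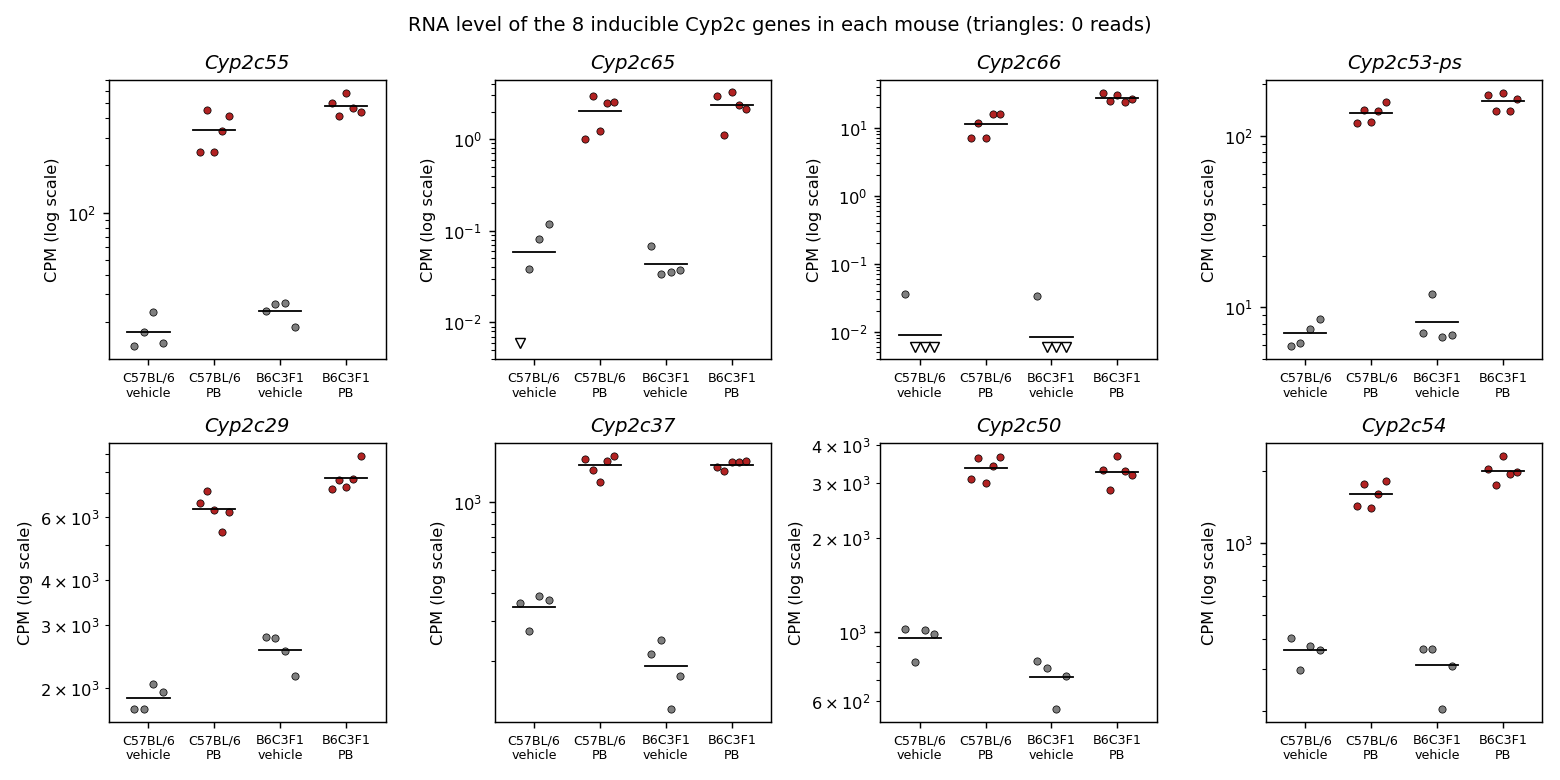
Counts per 1e6 reads (CPM, log axis) of each of the 8 genes in the 4 groups, with 1 point per mouse, a bar at the group mean and triangles for mice with 0 reads. Every PB-treated mouse lies above every vehicle mouse of its strain in all 8 panels, with the widest gap for Cyp2c66 and the narrowest for Cyp2c29.

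Of the 8 members, 8 were called higher in C57BL/6, where 0.845% of all genes were, and 8 in B6C3F1, where 1.55% were. All 8 also had every PB-treated mouse above every vehicle mouse, which held for 4.57% of all genes in C57BL/6 and 5.41% in B6C3F1. The median log2 FC of the members was 2.94 in C57BL/6 and 3.51 in B6C3F1, against -0.01 over all genes in each strain, and both medians rest in part on the fitted value of Cyp2c65. Among 13838 genes, at the pseudocount of 0.1 CPM on which these ranks depend, Cyp2c66 had the fourth largest log2 FC in C57BL/6, after Cyp2b13 (7.16), Cyp2b10 (7.07) and the sulfotransferase gene Sult3a1 (6.97). In B6C3F1 it came after Cyp2b13 (8.07) alone. Cyp2c53-ps, Cyp2c55 and Cyp2c65 ranked 5, 6 and 11 in C57BL/6 and 13, 12 and 17 in B6C3F1, and Cyp2c54, Cyp2c37, Cyp2c50 and Cyp2c29 between 33 and 86 in both. At 1 CPM the C57BL/6 log2 FC of Cyp2c66 was 3.56, below Cyp2c55 (4.18) and Cyp2c53-ps (4.09), and that of Cyp2c65 was 1.47, below Cyp2c29 (1.75). In B6C3F1 at 1 CPM, Cyp2c66 (4.82) stayed above Cyp2c55 (4.292) and Cyp2c53-ps (4.154), and Cyp2c65 (1.655) above Cyp2c29 (1.599). Sult3a1 was chosen after its values were seen.

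Levels of different genes can be compared only per length, here as CPM per kb of the longest RefSeq transcript. On that scale Cyp2c29 had the highest mean in every group, with 1049.6 CPM per kb in C57BL/6 vehicle mice and 3535 with PB, and 1430.3 and 4325 in B6C3F1. It ranked 58 with vehicle and 13 with PB among 13347 genes with a length in C57BL/6, and 33 and 10 in B6C3F1. Cyp2c50 came next in every group, at 504 CPM per kb with vehicle and 1774 with PB in C57BL/6, where its rank went from 103 to 26.

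Cyp2c54 and Cyp2c37 followed on the same scale, at 905 and 792 CPM per kb in PB-treated C57BL/6 mice. Their ranges overlapped in 3 of the 4 groups and were apart in PB-treated B6C3F1 mice, at 1131 and 796 CPM per kb. Cyp2c55 and Cyp2c53-ps were the fifth and the sixth in each group. With PB they reached 169 and 94.0 CPM per kb in C57BL/6 and moved from rank 4269 to 319 and from 6098 to 572.

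Cyp2c65 and Cyp2c66 were at the bottom of the order with vehicle, where their ranges overlapped and no mean was above 0.0304 CPM per kb. With PB Cyp2c66 was above Cyp2c65 without overlap, at 7.08 against 1.05 CPM per kb in C57BL/6 and 17.0 against 1.22 in B6C3F1. The rank of Cyp2c66 went from 13335 to 4905 in C57BL/6 and from 13341 to 2586 in B6C3F1. Together the 8 genes took 0.356 ± 0.0305% (SD, n = 4) of the reads in C57BL/6 vehicle mice and 1.32 ± 0.0918% (SD, n = 5) with PB. In B6C3F1 they took 0.380 ± 0.0436% (SD, n = 4) and 1.51 ± 0.0796% (SD, n = 5).

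Comparing the strains without PB asks how the genes stood before induction. RNA reads of both strains were aligned to mm10, the C57BL/6J genome, and whether C3H variants changed mapping in B6C3F1 was not tested here. Cyp2c37 was lower in B6C3F1 than in C57BL/6 vehicle mice, Cyp2c29 was higher in each B6C3F1 mouse, and the mice of the strains overlapped for the other 6 genes. With vehicle, 1 of the 8 members was called between the strains, where 3.63% of all genes were, so this count says little about the members as a group. Cyp2c37 had 190.2 ± 54.1 (SD, n = 4) CPM in B6C3F1 and 347 ± 51.0 (SD, n = 4) in C57BL/6, lower in all 4 B6C3F1 mice (log2 FC -0.90, SE 0.17, FDR 0.00165). Fitted on the 8 vehicle mice alone, the log2 FC of -0.90 no longer passed. Of 8 pericentral markers, Oat (log2 FC -0.63, FDR 0.00579) and Slc1a2 (-0.75, 0.00452) were called lower in B6C3F1 vehicle mice, and 6 were not called. Of 8 periportal markers, Hal (-0.64, FDR 1.55e-05) was called lower and 7 were not called. Cyp2c29 differed by less than the fold threshold (log2 FC 0.44, SE 0.09, FDR 0.00117, higher in 4 of 4 mice). For Cyp2c50 the fit gave a lower B6C3F1 level (log2 FC -0.42, SE 0.11, FDR 0.00837), with 1 B6C3F1 mouse inside the C57BL/6 range.

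With PB the same comparison called Cyp2c66 and not Cyp2c37, but neither was called in the interaction of strain and PB given next. Cyp2c66 was 2.4 times as high in PB-treated B6C3F1 mice as in PB-treated C57BL/6 mice, at 27.7 ± 4.03 (SD, n = 5) against 11.5 ± 4.42 (SD, n = 5) CPM, higher in all 5 (log2 FC 1.33, SE 0.22, FDR 1.17e-04). It was the 1 member called of 8, beside 5.25% of all genes, so this count too says little about the members as a group. Cyp2c29 was higher in 5 of 5 mice but under the fold threshold (log2 FC 0.29, SE 0.08, FDR 0.00777). Cyp2c37, which differed with vehicle, did not differ detectably with PB (log2 FC 0.01, SE 0.15, FDR 0.965). Cyp2c55 had a log2 FC of 0.55 (FDR 0.0424), Cyp2c54 0.32 (FDR 0.105) and Cyp2c50 -0.04 (FDR 0.795), each with overlapping mice.

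Whether the response itself differed between the strains was tested as the interaction of strain and PB. None of the 8 members was called in limma, nor was any gene (0% of all genes), with 4 members at an unadjusted p under 0.05, and edgeR called 0 with 3 members at an unadjusted p under 0.05. Over all 13838 genes 1093 had an unadjusted p under 0.05. The PB response was larger in B6C3F1 by 1.34 log2 units for Cyp2c66 (SE 0.33, FDR 0.185) and by 0.91 for Cyp2c37 (SE 0.23, FDR 0.300). For Cyp2c54 it was larger by 0.56 (FDR 0.530) and for Cyp2c50 by 0.38 (FDR 0.481). Cyp2c55, Cyp2c53-ps and Cyp2c29 had interactions of 0.09, 0.05 and -0.15, and Cyp2c65 of 0.33 with an SE of 0.48. The median over the members was 0.36, against 0.00 over all genes.

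The mice of a group also varied together in some of the members. After subtracting each group's mean on the log2 scale, Cyp2c50 and Cyp2c54 had a Pearson r of 0.967 over 18 mice, Cyp2c37 and Cyp2c54 of 0.845, and Cyp2c37 and Cyp2c50 of 0.796. Cyp2c55 and Cyp2c65 followed at 0.691. Cyp2c29 varied apart from the rest, with r between -0.254 (Cyp2c66) and 0.321 (Cyp2c37). These values describe 18 livers and come from the same libraries, so shared depth and scaling enter each of them. B6C3F1 vehicle mouse 3, the lowest of the 18 for Cyp2c37, Cyp2c50 and Cyp2c54, enters the r values of this trio, which were not computed without it. Of the read-length windows of these 3 transcripts, 13.2 to 17.2% are shared within the trio.

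The genes outside the family whose RNA was most like that of the members over the 18 mice were found by Pearson's r on the log2 scale, a measure in which the group means dominate. Cyp2b10 was the most like Cyp2c55 (r = 0.990), Cyp2c53-ps (r = 0.990), Cyp2c66 (r = 0.989) and Cyp2c29 (r = 0.975), and the third most like Cyp2c65 (r = 0.979). Cyp2c55 was followed by the glutathione transferase genes Gstm3 (0.988) and Gstm1 (0.984), and Cyp2c65 was most like Gstm1 (0.982) and Greb1 (0.979). After Cyp2b10, Cyp2c66 was most like the sphingomyelinase gene Smpd3 (0.982) and Nebl (0.975), Cyp2c53-ps like Gstm1 (0.984) and the glucuronosyltransferase gene Ugt2b34 (0.978), and Cyp2c29 like 1700024P16Rik (0.974) and the efflux transporter gene Abcc3 (0.973). Cyp2c37 was most like Cyb5a (0.982), Ugt1a1 (0.977) and Ugt2b36 (0.969). Cyp2c50 and Cyp2c54 shared their 3 most alike genes, Ugt2b34 (0.982 and 0.984), Orm3 (0.982 and 0.979) and Ugt1a1 (0.981 and 0.976).

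With group means subtracted, other genes came first. Cyp2c37 was most like Akr1c6 (0.925), a hydroxysteroid dehydrogenase gene, then the noncoding RNA gene Meg3 (0.860) and Irx1 (0.860). Cyp2c50 was most like Meg3 (0.894), Lect2 (0.874) and Akr1c6 (0.868), and Cyp2c54 most like Cyb5a (0.898), Meg3 (0.889) and Akr1c6 (0.883). The values of this trio, too, were not computed without B6C3F1 vehicle mouse 3. The members nearer the start of the cluster had other nearest genes, G3bp1 (0.866), Fkbp11 (0.788) and Gstm3 (0.773) for Cyp2c55, Snd1 (0.837), Mast2 (0.824) and Etnk2 (0.809) for Cyp2c65, and F11 (0.816), Pgap2 (0.799) and Tmprss7 (0.798) for Cyp2c66. Cyp2c53-ps was most like Tmem69 (0.866), Vav2 (0.831) and Nudc (0.817), and Cyp2c29 most like Pitpnc1 (0.822), Fra10ac1 (0.799) and Pinx1 (0.786).

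In mm10 the members lie along chromosome 19 in the order in which they are listed here, except that Cyp2c54 comes before Cyp2c50. Cyp2c55 spans chr19:39007019-39042687, Cyp2c65 chr19:39061006-39093948, Cyp2c66 chr19:39113898-39186756, Cyp2c53-ps chr19:39229254-39274737 and Cyp2c29 chr19:39287085-39330713. Cyp2c37 spans chr19:39992424-40012243, Cyp2c54 chr19:40037940-40073813 and Cyp2c50 chr19:40089679-40113955. All are on the forward strand except Cyp2c54, and each has 9 exons, with a coding part of 1473 bases in all but the pseudogene. The start sites of neighbours are 52.9 to 115.4 kb apart from Cyp2c55 to Cyp2c29, then 705.3 kb apart from Cyp2c29 to Cyp2c37, and 15.9 kb apart between Cyp2c54 and Cyp2c50.

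Likeness of sequence sets how well reads can be told apart, because the authors kept uniquely mapped reads. The transcripts of Cyp2c65 and Cyp2c66 are 96.1% identical over 1623 aligned bases, and those of Cyp2c37, Cyp2c50 and Cyp2c54 are 94.8 to 95.8% identical. Cyp2c53-ps and Cyp2c29 are 82.1% identical, and Cyp2c55 is 67.9 to 73.2% identical to the other members. Of the 76-base windows of each transcript, the length of a read, 11.1% in Cyp2c65 and 13.3% in Cyp2c66 also occur in the other gene of that pair. The share was 13.3% in Cyp2c37, 17.2% in Cyp2c50 and 13.2% in Cyp2c54, all shared within that trio, 5.48% in Cyp2c53-ps, 0.468% in Cyp2c29 and 0% (0 of 1914) in Cyp2c55. Values of the near-identical genes are therefore uncertain where such reads were dropped or assigned to a copy.

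A check of the other members of the family and of the pathway used lists of named genes. Of 9 further Cyp2c genes 8 are in the table, and none was called with PB in C57BL/6 (limma, median log2 FC -0.19). In B6C3F1 5 of the 8 fell (median -1.67), where 0.448% of all genes did (0.0289% in C57BL/6), with log2 FCs of -1.84 for Cyp2c38, -2.16 for Cyp2c39, -2.32 for Cyp2c40, -1.50 for Cyp2c67 and -1.98 for Cyp2c69. The interaction was called for none of them (FDR 0.351 to 0.701).

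Among 13 receptors and partners of the PB response, Por, the oxidoreductase that supplies electrons to P450 enzymes, rose in both strains (log2 FC 1.34, FDR 8.80e-05 in C57BL/6 and 1.79, FDR 2.12e-06 in B6C3F1). Cyb5a, which encodes cytochrome b5, another electron donor, rose in B6C3F1 (0.73, FDR 3.81e-08) and had a log2 FC just under the threshold in C57BL/6 (0.57), with an interaction of 0.16 (FDR 0.668). The receptor genes were not called, with -0.22 and -0.37 for Nr1i3 (CAR) and 0.13 and 0.21 for Nr1i2 (PXR). The medians of the list were 0.13 and 0.08.

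Of 34 CAR target genes 32 are in the table, and 24 were called higher in C57BL/6 (median 0.93) and 22 in B6C3F1 (median 1.10), none lower. Of all genes 0.845% and 1.55% were called higher. The list was written with earlier results of these data known, so nothing more is read from its count. Cyp2b10 went from a mean of 8.73 to 1194 CPM in C57BL/6 and from 11.8 to 1519 CPM in B6C3F1, Gstm3 had log2 FCs of 4.04 and 3.85, and Cyp3a11, whose enzyme oxidizes many drugs, of 0.92 and 1.15. Of 20 genes of arachidonic and linoleic acid metabolism 18 are in the table. Ephx1, an epoxide hydrolase gene, was called higher in C57BL/6 (0.59) but had 0.44 in B6C3F1 (interaction -0.16, FDR 0.777), and none of the other 17 was called in either strain. Ephx2, which hydrolyzes the epoxides made by CYP2C enzymes, had -0.12 in both, and Cyp2j5, an epoxygenase gene of another family, -0.05 and -0.19. The medians of the list were -0.05 and -0.09.

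Cyp2c65 and Cyp2c66 are known from the gut, so markers of intestine and of other cell types were read beside them. Of 10 markers of intestinal epithelium 3 are in the table, Vil1, Fabp2 and Car1, while Lgals4, Cdx1, Cdx2, Krt20, Muc2, Guca2a and Cldn7 are not. Their sum, of which Fabp2 with group means of 66.4 to 88.4 CPM is the largest part, was 82.2 ± 9.16 CPM (SD, n = 4) with vehicle and 71.7 ± 6.72 (SD, n = 5) with PB in C57BL/6, and 95.7 ± 15.3 (SD, n = 4) and 78.9 ± 9.73 (SD, n = 5) in B6C3F1. None of the 3 was called with PB. The lower mean sum with PB follows Fabp2, whereas in B6C3F1 the other markers had means of 0.395 CPM with vehicle and 0.797 with PB for Vil1 (log2 FC 0.93, FDR 0.127) and 6.84 and 7.99 CPM for Car1 (log2 FC 0.33, FDR 0.464). Between PB-treated mice Vil1, like Cyp2c66, was called higher in B6C3F1 than in C57BL/6 (log2 FC 1.39, FDR 0.00545). Whether gut cells added to Cyp2c65 or Cyp2c66 RNA was not tested.

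Liver markers were present in every mouse. The sum of 6 hepatocyte markers, led by Alb, was 75644 ± 7288 CPM (SD, n = 4) with vehicle and 66110.2 ± 3414 (SD, n = 5) with PB in C57BL/6, and 84446 ± 2989.5 (SD, n = 4) and 71759 ± 6400.4 (SD, n = 5) in B6C3F1, and none of the 6 was called with PB. Among 8 pericentral markers, led by Cyp2e1, Cyp1a2 alone was called, higher in both strains (log2 FC 0.91 and 1.30), and it is itself on the list of CAR targets. None was called with PB among 8 periportal, 5 endothelial, 5 Kupffer cell and 5 stellate cell markers, among the 5 of 6 cholangiocyte markers in the table, or for the 1 exocrine pancreas and the 1 erythroid marker in it.

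DNase I cuts accessible chromatin, and the deposited normalized counts give how open each DHS was in the same livers. Log2 FCs of DHSs are on the log2(normalized count + 1) scale, with the same thresholds over 98170 DHSs in limma. In both strains many DHSs along the cluster opened with PB, and none was called less accessible. The largest gains were inside Cyp2c66 and Cyp2c53-ps, not at the promoter of the strongly expressed Cyp2c29. DHSs are named here by their number in the order of the deposited table.

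Of the 46 DHSs in the window, 24 were called higher with PB in C57BL/6, where 0.329% of all DHSs were, and 21 in B6C3F1, where 0.169% were. Both strains called 19 of them, against 0.0998% of all DHSs, which is 79.2% of the C57BL/6 calls and 90.5% of the B6C3F1 calls. Every PB-treated mouse was above every vehicle mouse at 30 DHSs in C57BL/6 (1.74% of all DHSs) and at 28 in B6C3F1 (1.89% of all DHSs), 27 of them in both. Every PB-treated mouse was below every vehicle mouse at 0 DHSs in C57BL/6 (1.40% of all DHSs) and at 2 in B6C3F1 (1.65%), dhs47956 and dhs47957 (log2 FC -0.47 and -0.80). In overlapping groups dhs47959 and dhs47960 had log2 FCs of -1.64 and -0.88 in B6C3F1 (FDR 0.176 and 0.0865), and these 4 DHSs were chosen after their values were seen. None of the 46 was called lower in either strain by limma, where 34 had an unadjusted p under 0.05 in C57BL/6 and 36 in B6C3F1 in either direction (7615 and 8997 of all 98170 DHSs), and edgeR called 24 and 22 in all. The median log2 FC in the window was 1.05 in C57BL/6 and 1.25 in B6C3F1, against 0.00 and -0.01 over all DHSs.

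The B6C3F1 count was lower without any 1 of its 9 libraries. It was 13 without vehicle mouse 1, 13 without PB-treated mouse 1, 12 without PB-treated mouse 3 and 12 without PB-treated mouse 4. Leaving out any of the others gave 14 to 19, and leaving out a C57BL/6 mouse gave 22 to 24 in that strain.

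The response was uneven along the window. From its start to the end of Cyp2c55, 1 of 8 DHSs was called in each strain, the promoter of Cyp2c55, and the single DHS between there and a point 20 kb before the Cyp2c66 start was not called. From that point to the end of Cyp2c66, 6 of 6 DHSs were called in C57BL/6 and 5 in B6C3F1, with median log2 FCs of 2.27 and 3.05. Between there and the end of Cyp2c53-ps 11 of 14 were called in C57BL/6 and 9 in B6C3F1 (medians 1.36 and 1.76). On to the end of Cyp2c29 4 of 9 were called in each strain (medians 0.67 and 0.93), and after Cyp2c29 2 of 8, dhs47954 and dhs47955, which were chosen after their values were seen (medians 0.26 and -0.44).

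**Figure D2:**
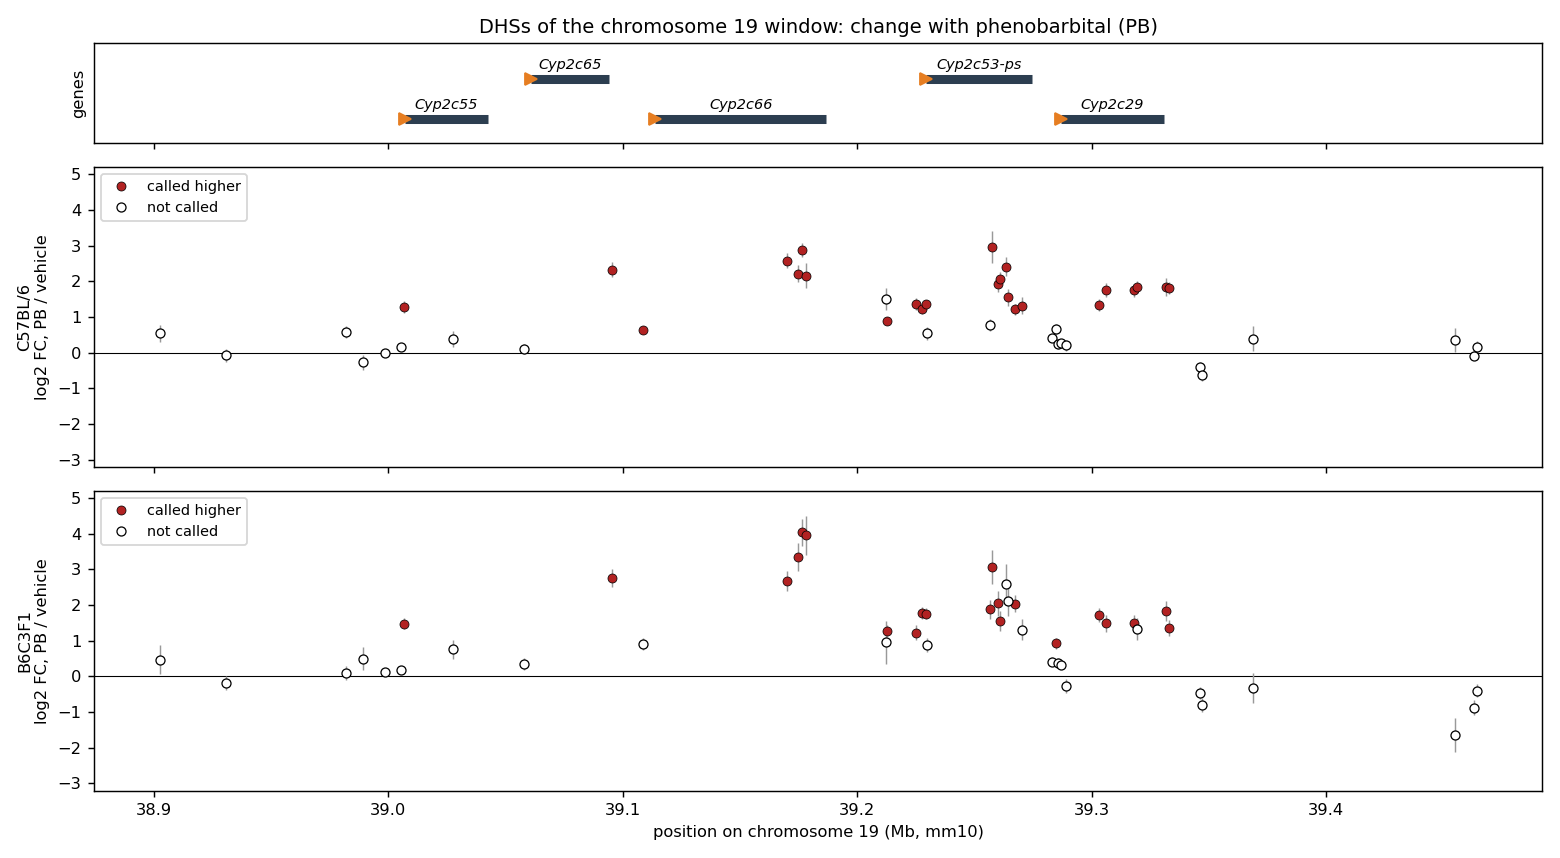
Gene models with arrows at the start sites above the log2 fold change (PB against vehicle) of each DHS in C57BL/6 and B6C3F1, plotted against the position on chromosome 19 in Mb (mm10), with lines for the SE and filled points for DHSs called higher. The called DHSs gather between the region before Cyp2c66 and the end of Cyp2c29, and the largest value is inside Cyp2c53-ps in C57BL/6 and inside Cyp2c66 in B6C3F1.

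Promoters of the members, taken as 1000 bases before to 100 bases after the start site, held 7 DHSs. The Cyp2c55 promoter DHS (dhs47922, chr19:39006626-39007120) had 153, 159, 136 and 103 normalized counts in the C57BL/6 vehicle mice and 232, 414, 308, 361 and 376 in the PB-treated ones. In B6C3F1 it had 133, 169, 111 and 146 with vehicle and 447, 388, 393, 317 and 397 with PB. All PB-treated mice lay above all vehicle mice, C57BL/6 PB-treated mouse 1, which also had the lowest Cyp2c55 RNA of the PB-treated mice, being the nearest to them. The log2 FC was 1.28 in C57BL/6 (FDR 5.22e-05) and 1.48 in B6C3F1 (FDR 5.54e-05), far less than the log2 FC of its RNA.

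At the promoter of the pseudogene Cyp2c53-ps (dhs47935, chr19:39228954-39229440) the C57BL/6 vehicle mice had 149, 136, 119 and 115 normalized counts and the PB-treated mice 369, 362, 292, 289.8 and 354. The B6C3F1 vehicle mice had 131, 153, 103 and 96.0 and the PB-treated mice 391, 365, 392, 417 and 462. Vehicle and PB-treated mice were well apart in both strains, and the promoter of this noncoding copy gained about as much as that of Cyp2c55 (log2 FC 1.35, SE 0.13, FDR 6.46e-07 in C57BL/6 and log2 FC 1.76, SE 0.16, FDR 7.38e-06 in B6C3F1). Cyp2c65 and Cyp2c66 had no DHS at their start sites.

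Of the 3 promoter DHSs in the window, that of Cyp2c29 had the highest counts (dhs47948, chr19:39286788-39287252), 703, 728, 542 and 713 normalized counts in the C57BL/6 vehicle mice and 759, 877, 868, 722 and 829.6 in the PB-treated ones. In B6C3F1 the vehicle mice had 674, 688, 686 and 689.6 and the PB-treated mice 758, 837, 853, 893 and 933. C57BL/6 vehicle mouse 3 was lower than the other vehicle mice, the C57BL/6 groups overlapped, and in B6C3F1 all PB-treated mice were slightly higher. It was called in neither strain (log2 FC 0.28, SE 0.10, FDR 0.325 in C57BL/6 and log2 FC 0.32, SE 0.09, FDR 0.178 in B6C3F1), although Cyp2c29 RNA was over 3 times as high.

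Of the promoters beyond the window, that of Cyp2c50 held 2 DHSs. That at the start site (dhs47999, chr19:40089460-40089853) had 343, 332, 304 and 344 normalized counts in the C57BL/6 vehicle mice and 589.6, 578, 523, 527 and 656 with PB. In B6C3F1 it had 271, 337, 328 and 256 with vehicle and 395, 419.9, 396, 344 and 535 with PB. All PB-treated mice were above all vehicle mice in both strains, and in B6C3F1 PB-treated mouse 4 was close to the highest vehicle mouse. It was called in C57BL/6 (log2 FC 0.79, SE 0.10, FDR 2.68e-05) but not in B6C3F1 (log2 FC 0.48, SE 0.14, FDR 0.205). Its interaction was -0.31 (unadjusted p 0.0765, FDR 0.907).

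The DHS further up the Cyp2c50 promoter (dhs47998, chr19:40088358-40088902) had log2 FCs of 0.24 (FDR 0.443) and 0.34 (FDR 0.233), called in neither strain. The Cyp2c37 promoter DHS (dhs47992, chr19:39992195-39992574) had 383 ± 49.4 (SD, n = 4) normalized counts with vehicle and 516 ± 43.0 (SD, n = 5) with PB in C57BL/6 (log2 FC 0.43, FDR 0.0495), and 0.32 in B6C3F1 (FDR 0.589). The Cyp2c54 promoter DHS (dhs47995, chr19:40073661-40074386) had 0.45 in C57BL/6 (FDR 0.0596) and 0.47 in B6C3F1 (FDR 0.112), with means of 370.4 ± 59.3 and 505 ± 52.8, and 351 ± 33.1 and 489 ± 51.2. These 3 DHSs thus differed by less than the thresholds, while the RNA of their genes was 3.52 to 7.63 times as high.

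Within or up to 10 kb from Cyp2c37, Cyp2c54 and Cyp2c50 lie 12 DHSs, with median log2 FCs of 0.44 in C57BL/6 and 0.42 in B6C3F1. In C57BL/6 2 were called, dhs47999 and a DHS over exon 7 of Cyp2c37 (dhs47993, chr19:40001776-40001984). The latter had log2 FC 1.36, SE 0.24, FDR 0.00293 in C57BL/6, log2 FC 2.07, SE 0.43, FDR 0.0263 in B6C3F1 and an interaction of 0.71 (FDR 0.910). In B6C3F1 limma called 0 of the 12, with 7 at an unadjusted p under 0.05, and edgeR called 0. The C57BL/6 call of dhs47993 was lost without vehicle mouse 1, 2 or 3 (log2 FC 1.32, 1.38 and 1.37), without PB-treated mouse 1, 2 or 4 (1.28, 1.39 and 1.22), and in 1 fit over all 4 groups, where it was called in B6C3F1 instead.

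Away from the promoters, the 5 window DHSs with the largest mean log2 FC among those called in both strains were all inside Cyp2c66 or Cyp2c53-ps. Over exon 7 of Cyp2c66 (dhs47929, chr19:39176281-39176970), the C57BL/6 vehicle mice had 17.9, 24.9, 17.4 and 20.8 normalized counts and the PB-treated mice 128, 187, 120.0, 169.9 and 175. The B6C3F1 vehicle mice had 38.0, 21.1, 7.38 and 24.3 and the PB-treated mice 491, 265, 444, 295 and 266. Nearly closed with vehicle, it opened in every PB-treated mouse, and each PB-treated B6C3F1 mouse was above each C57BL/6 one, as for Cyp2c66 RNA. Of 98170 DHSs it had the ninth largest log2 FC in C57BL/6 (log2 FC 2.88, SE 0.20, FDR 2.97e-09) and the largest in B6C3F1 (log2 FC 4.04, SE 0.38, FDR 3.61e-04), with an interaction of 1.17 (unadjusted p 0.0119, FDR 0.907).

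In intron 7 of Cyp2c66 (dhs47930, chr19:39178017-39178293), the C57BL/6 vehicle mice had 5.95, 8.54, 10.2 and 15.9 normalized counts and the PB-treated mice 52.9, 49.5, 20.1, 51.1 and 77.8. In B6C3F1 these were 23.2, 1.76, 3.69 and 12.2 with vehicle and 165, 86.2, 201, 101 and 95.6 with PB. The groups did not overlap in B6C3F1 or in C57BL/6, where PB-treated mouse 3 was only slightly above vehicle mouse 5 (log2 FC 2.16, SE 0.35, FDR 9.48e-04 in C57BL/6 and log2 FC 3.95, SE 0.54, FDR 0.00487 in B6C3F1). The 1.76 and 3.69 are the value of 1 read, the lowest any DHS has in these mice, so they may stand for 0 reads and the log2 FC depends on them. At these low counts the B6C3F1 call was lost without vehicle mouse 3 or 5 (log2 FC 3.69 and 4.19) and without PB-treated mouse 1, 3 or 4 (3.84, 3.77 and 4.02) or with a pseudocount of 0.1 (4.20), and the C57BL/6 call in 1 fit over all 4 groups.

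In intron 6 of Cyp2c53-ps (dhs47938, chr19:39257464-39257581), the C57BL/6 mice had 11.4, 9.25, 12.3 and 1.22 normalized counts with vehicle and 62.5, 66.8, 33.9, 72.7 and 76.5 with PB. The B6C3F1 mice had 15.8, 1.76, 3.69 and 12.2 with vehicle and 50.1, 46.5, 63.4, 64.6 and 86.8 with PB. The highest vehicle mouse had 15.8 and the lowest PB-treated mouse 33.9 (log2 FC 2.97, SE 0.46, FDR 0.00309 in C57BL/6 and log2 FC 3.08, SE 0.48, FDR 0.00291 in B6C3F1). The 1.22, 1.76 and 3.69 are again the value of 1 read. The call was lost in C57BL/6 without vehicle mouse 2 (log2 FC 3.10) or PB-treated mouse 1 or 5 (2.95 and 2.88) or with a pseudocount of 0.1 (3.22), and in B6C3F1 without PB-treated mouse 1, 3 or 4 (3.15, 3.06 and 3.06).

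Another 2 of the 5 are in Cyp2c66, in introns 6 and 5. The DHS in intron 6 (dhs47928, chr19:39174598-39174777) had 18.7 ± 6.92 (SD, n = 4) normalized counts with vehicle and 87.7 ± 12.4 (SD, n = 5) with PB in C57BL/6, and 16.1 ± 8.97 (SD, n = 4) and 149 ± 30.6 (SD, n = 5) in B6C3F1. Its log2 FC was 2.22 (FDR 3.04e-06) and 3.35 (FDR 7.08e-04). In B6C3F1 vehicle mouse 3 it had 3.69, the value of 1 read, which may stand for 0, so the B6C3F1 log2 FC depends on it. The DHS in intron 5 (dhs47927, chr19:39169858-39170228) reached the same level in both strains, 118 ± 24.6 (SD, n = 5) and 116 ± 23.4 (SD, n = 5) with PB from 18.8 ± 3.99 (SD, n = 4) and 18.1 ± 7.89 (SD, n = 4) with vehicle, a log2 FC of 2.58 (FDR 9.38e-08) and 2.68 (FDR 5.54e-05). At both DHSs every PB-treated mouse was above every vehicle mouse of its strain.

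**Figure D3:**
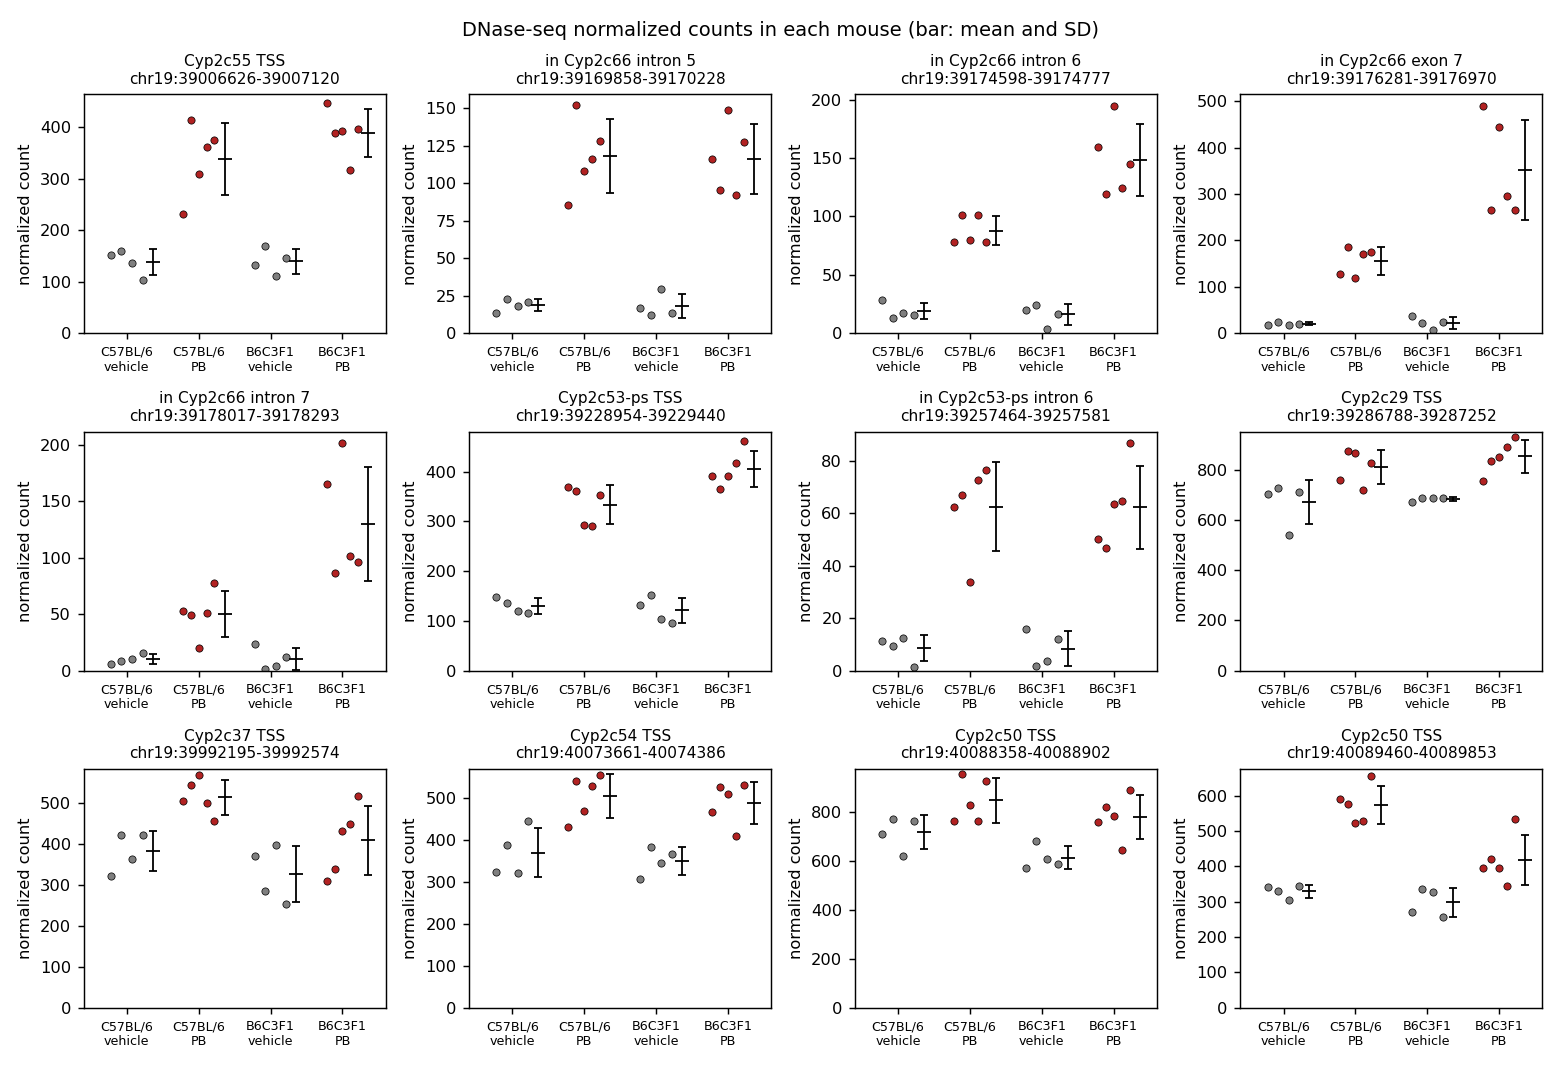
Normalized counts of the 7 promoter DHSs and the 5 window DHSs with the largest mean log2 fold change, with 1 point per mouse and bars for the group mean and SD. The DHSs inside Cyp2c66 and Cyp2c53-ps are near 0 with vehicle and open with PB, while the Cyp2c29 promoter is high in all 4 groups.

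Calls in a single strain were few, and these DHSs were chosen after their values were seen. In C57BL/6 alone 5 were called, dhs47926 before Cyp2c66, dhs47941, dhs47942 and dhs47944 in intron 6 of Cyp2c53-ps and dhs47953 in intron 5 of Cyp2c29, with log2 FCs of 0.65, 2.41, 1.55, 1.32 and 1.84. In B6C3F1 they had 0.90, 2.60, 2.12, 1.31 and 1.34, with FDRs of 0.0232 to 0.0681 and interaction FDRs of 0.910 to 0.999. In B6C3F1 alone 2 were called, dhs47937 in intron 6 of Cyp2c53-ps (1.88 against 0.77 in C57BL/6, interaction 1.10, FDR 0.905) and dhs47946, 2.4 kb before Cyp2c29 (0.93 against 0.67, interaction 0.26, FDR 0.913).

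In the interaction of strain and PB, limma called 0 of the 46 DHSs (0% of all DHSs) with 8 at an unadjusted p under 0.05, and edgeR called 0 with 8 at an unadjusted p under 0.05. Over all DHSs 5294 had an unadjusted p under 0.05. The responses of the strains at the DHSs of Cyp2c66 and its neighbours are therefore given side by side, and no difference between them passed the test.

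Between the strains' vehicle mice 5 of the 46 DHSs were called, 2 higher and 3 lower in B6C3F1, where 10.5% of all DHSs were called, so the count is close to the background. All 5 were chosen after their values were seen. Higher in B6C3F1 were dhs47918, 24.8 kb before Cyp2c55 (1.28), and dhs47949 in intron 1 of Cyp2c29 (0.79). Lower were dhs47937 (-1.32) and dhs47943 (-2.10) in intron 6 of Cyp2c53-ps and dhs47957 after Cyp2c29 (-1.10). At dhs47943 (chr19:39266893-39267338) C57BL/6 had 145 ± 34.1 (SD, n = 4) normalized counts with vehicle and 335 ± 48.3 (SD, n = 5) with PB, and B6C3F1 33.4 ± 10.3 (SD, n = 4) and 138 ± 23.0 (SD, n = 5), called higher with PB in both.

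That strain count was 2 without C57BL/6 vehicle mouse 2, when dhs47937 (-1.27), dhs47949 (0.73) and dhs47957 (-1.04) were lost, and 4 to 7 without any other mouse. The call of dhs47937 was also lost without C57BL/6 vehicle mouse 1 (-1.25) and that of dhs47957 without B6C3F1 vehicle mouse 5 (-1.03). Over the whole genome 6024 DHSs were higher and 4257 lower in B6C3F1, 58.6% higher, and 48.0% were higher (4816 and 5211) when log2 values were centred on sample medians.

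Several of these DHSs are near copies of each other. In intron 6 of Cyp2c53-ps the 300 bases centred on dhs47937, dhs47942, dhs47943 and dhs47944 are 93.1 to 97.6% identical, and those centred on dhs47938 and dhs47941 are 95.3% identical over 276 bases. As dhs47938, dhs47941, dhs47942 and dhs47944 are narrower, 118 to 192 bases wide, these alignments include sequence beside them. The promoter DHSs of Cyp2c37 and Cyp2c50 are 92.4% identical over 288 bases, and the 300 bases centred on the exon 7 DHSs of Cyp2c66 and Cyp2c37, both called in C57BL/6, are 79.3% identical over 213 bases. Reads from such copies could be lost by the authors' filter on mapping quality, so their counts are uncertain.

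CAR with RXRα binds direct repeats of the half-site RGKTCA (where R is A or G and K is G or T) with 4 or 5 bases between, called DR4 and DR5. With at most 1 mismatch over the 12 half-site bases, on either strand, a DR4 was found in the 300 bases centred on 8 of the 46 window DHSs (17.4%) and on 3263 of all DHSs (3.32%). A DR5 was found for 0 of the 46 and for 3.29% of all DHSs. The 300 bases reach beyond a DHS where it is narrower, as 17 of the 46 are, and the match near dhs47938, 118 bases wide, lies outside it, which leaves a DR4 inside 7 of the 46 (15.2%) and inside 3.05% of all DHSs. Of the 7, 3 were called with PB in both strains, 1 in C57BL/6 alone (dhs47926) and 3 in neither, and a match is a description of letters, not of binding. The 1 match with no mismatch in the window (0.254% of all DHSs have one in the 300 bases) is in dhs47921, 1.6 kb before Cyp2c55, which was not called (0.15 and 0.17) and was chosen after its values were seen.

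Matches recur before 3 of the genes, in DHSs that are copies of each other and were chosen after their values were seen. They are dhs47926, 5.3 kb before Cyp2c66, dhs47932, 16.4 kb before Cyp2c53-ps, and dhs47945, 4.1 kb before Cyp2c29. The first and the last are 89.5% identical over 248 bases and hold the same 2 DR4 matches in the same order, and dhs47932 is 92.7% identical to the first over 150 bases and holds 1. The 300 bases centred on them are shown because they carry the shared repeats, from GRCm38.p6 (mm10) on the forward strand, with the half-sites of the matches in capitals, for chr19:39108469-39108768, chr19:39212727-39213026 and chr19:39282867-39283166.
dhs47926: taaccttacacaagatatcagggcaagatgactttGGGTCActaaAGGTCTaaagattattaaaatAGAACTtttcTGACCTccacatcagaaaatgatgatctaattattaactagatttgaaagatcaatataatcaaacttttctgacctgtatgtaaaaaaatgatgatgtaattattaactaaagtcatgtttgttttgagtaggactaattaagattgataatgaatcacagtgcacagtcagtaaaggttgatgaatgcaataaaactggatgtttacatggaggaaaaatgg
dhs47932: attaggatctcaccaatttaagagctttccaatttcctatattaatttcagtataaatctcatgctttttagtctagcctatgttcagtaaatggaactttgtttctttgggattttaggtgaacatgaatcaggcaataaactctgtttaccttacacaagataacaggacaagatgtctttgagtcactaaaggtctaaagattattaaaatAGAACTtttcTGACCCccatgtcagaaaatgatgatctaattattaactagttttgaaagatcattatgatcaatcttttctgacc
dhs47945: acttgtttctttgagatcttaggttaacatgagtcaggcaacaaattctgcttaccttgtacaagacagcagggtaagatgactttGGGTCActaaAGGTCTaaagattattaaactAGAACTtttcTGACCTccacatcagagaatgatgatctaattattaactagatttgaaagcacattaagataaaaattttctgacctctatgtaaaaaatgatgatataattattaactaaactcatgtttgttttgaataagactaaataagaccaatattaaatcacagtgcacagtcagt

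These 3 copies were open with vehicle already and gained unequally. Before Cyp2c66, dhs47926 went from 418 ± 78.1 (SD, n = 4) to 646 ± 25.0 (SD, n = 5) normalized counts in C57BL/6 (log2 FC 0.65, SE 0.10, FDR 0.00104) and, in B6C3F1, had 563 ± 135 (SD, n = 4) and 1040.1 ± 175 (SD, n = 5) (log2 FC 0.90, SE 0.17, FDR 0.0299). Before Cyp2c53-ps, dhs47932 rose in both strains (log2 FC 0.89, SE 0.12, FDR 4.81e-04 in C57BL/6 and log2 FC 1.27, SE 0.16, FDR 0.00202 in B6C3F1). Before Cyp2c29, dhs47945 was called in neither (log2 FC 0.40, FDR 0.147 and 0.42, FDR 0.209).

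Promoter sequences of 6 members are in the RefSeq set, each with 250 bases before and 50 after the start, on the gene's strand in GRCm38.p6. Those of Cyp2c65 and Cyp2c66 are 94.5% identical over 271 aligned bases and those of Cyp2c37 and Cyp2c50 88.5% over 295, while all other pairs are 46.6 to 59.1% identical. The first pair is printed because these promoters, with no DHS over either, belong to the genes that were nearly silent without PB and differed in level with it. In chr19:39060756-39061055 (Cyp2c65) and chr19:39113648-39113947 (Cyp2c66), both on the forward strand, capitals mark the 44 bases in each that differ or do not align.
Cyp2c65: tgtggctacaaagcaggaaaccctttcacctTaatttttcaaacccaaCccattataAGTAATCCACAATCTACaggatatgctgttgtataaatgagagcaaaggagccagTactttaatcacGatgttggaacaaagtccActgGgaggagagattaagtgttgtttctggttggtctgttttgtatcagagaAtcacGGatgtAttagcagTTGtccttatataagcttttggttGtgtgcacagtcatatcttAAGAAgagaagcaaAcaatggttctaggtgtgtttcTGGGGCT
Cyp2c66: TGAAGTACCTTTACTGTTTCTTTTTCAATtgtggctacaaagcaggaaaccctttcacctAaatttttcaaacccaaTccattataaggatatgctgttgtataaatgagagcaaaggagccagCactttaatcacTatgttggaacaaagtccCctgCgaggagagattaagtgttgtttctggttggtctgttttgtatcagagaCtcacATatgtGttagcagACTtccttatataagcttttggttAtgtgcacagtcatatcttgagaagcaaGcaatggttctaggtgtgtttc

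The promoter of Cyp2c50 (chr19:40089429-40089728, forward strand) is shown because it holds the 1 DR5 match, with 1 mismatch, among the 6 promoter sequences scanned. All but its first bases are covered by dhs47999, called higher with PB in C57BL/6 alone but with no interaction called (FDR 0.907). The half-sites of the match are in capitals.
Cyp2c50: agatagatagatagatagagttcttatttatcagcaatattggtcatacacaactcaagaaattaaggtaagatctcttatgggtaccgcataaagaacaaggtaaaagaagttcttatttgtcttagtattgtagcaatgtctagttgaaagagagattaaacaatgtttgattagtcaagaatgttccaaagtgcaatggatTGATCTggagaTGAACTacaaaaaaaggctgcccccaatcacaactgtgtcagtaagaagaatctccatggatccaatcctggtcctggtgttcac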

How the data were processed

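RNA-seq and DNase-seq were read in the livers of 18 mice, in the 4 groups that the labels give, with 0 sample columns unused. The deposited RNA signal is CPM, which the authors made by aligning reads to mm10 with STAR, counting uniquely mapped reads over RefSeq genes by strand and scaling by TMM in edgeR. The deposited DNase signal is a normalized count, which the authors made with Bowtie2, Picard, SAMtools, MACS2 and DiffBind, as a number of reads in a DHS times 1 factor per mouse. Dividing by the value of 1 read gave whole numbers for 100% of the values of both tables (within 0.1 reads). No DHS had 0 reads in any mouse, whereas in B6C3F1 vehicle mouse 3 1146 DHSs had the value of 1 read and 496 that of 2 reads, so 1 read acts as a floor and may stand for 0.

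limma 3.58.1 in R 4.3.3, with a trend of variance on mean and robust empirical Bayes, tested log2(CPM + 0.1) of genes with CPM ≥ 0.4 in at least 3 samples of a group in 1 fit of all 18 mice. For log2(normalized count + 1), each PB comparison was fitted on the 9 mice of a strain, the strain comparison on the 8 vehicle mice and the interaction on all 18. FDRs were adjusted over all genes or DHSs, and the tests were first tried on simulated data. On recovered reads edgeR 4.0.16 called 116 genes and 388 DHSs in C57BL/6, 275 and 262 in B6C3F1, 479 and 12827 between the strains with vehicle, 731 genes with PB, and 0 interactions in either table. Alternatives were pseudocounts of 0.5 and 1 CPM or 0.1 and 10 normalized counts, a filter at CPM ≥ 1 or none, a mean normalized count of at least 10, quantile normalization, centring on sample medians, other mice in the fit, edgeR, and each mouse left out in turn.

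The members and lists were chosen with earlier results of these data known. Genes named are the 8 members, the lists of other Cyp2c genes, receptors and partners, CAR targets, fatty acid metabolism and cell type markers, and the 3 genes outside the family most like each member by Pearson's r, with and without group means. DHSs named are those from 1000 bases before to 100 after a member's start, the 5 in the window with the largest mean log2 FC among those called in both strains, any called lower in the window, and those called with PB in either strain within 10 kb of Cyp2c37, Cyp2c50 and Cyp2c54. All other DHSs named were chosen after their values were seen. Gene models and sequences are RefSeq on GRCm38.p6, aligned with MAFFT 7.526 and BLAST 2.17.0, with tables made in Python 3.11.15. The result of 1 list of cell type markers is not reported here.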

Additional observations from a re-analysis of the deposited data

Results flagged for a closer look

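Among 84 sets of values, a group's mice for a member or a named DHS, 6 (7.14%) had 1 mouse far from the others of its group. Chance gives about 1 in 20, but not in groups with 0 to 2 reads per mouse, where 1 read sets the flag. As the Cyp2c66 and Cyp2c65 flags are of that kind, the 7.14% cannot be read against 1 in 20. For Cyp2c66 the flagged mice were C57BL/6 vehicle mouse 1 with 0.0357 CPM and B6C3F1 vehicle mouse 1 with 0.0339 CPM, each the only mouse of its group with a read. For Cyp2c65 it was B6C3F1 vehicle mouse 1 with 0.0678 CPM, which is 2 reads where the others had 1. Cyp2c53-ps had 12.0 CPM in B6C3F1 vehicle mouse 2, against 6.69 to 7.05 in the other 3, and the PB-treated mice had at least 138.5 CPM. Cyp2c29 had 8907 CPM in PB-treated B6C3F1 mouse 5, against 7184 to 7660 in the other 4. The promoter DHS of Cyp2c29 (dhs47948) had 542 normalized counts in C57BL/6 vehicle mouse 3, against 703 to 728 in the other 3.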

How the results depend on the processing

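All 8 members were called higher with PB in both strains under each of the 8 alternatives and without any 1 mouse. Between vehicle mice, Cyp2c37 was the 1 member called under every alternative but the fit on the compared groups, which called 0, and without each of the 8 mice the count was 1. With PB the strain count was 1 throughout, and the interaction count was 0 for members and DHSs throughout. In the window, the C57BL/6 count of 24 DHSs ranged from 19 to 24 over the alternatives and from 22 to 24 without 1 mouse. The B6C3F1 count of 21 ranged from 20 to 26 and from 12 to 19, and the strain count of 5 from 5 to 6 and from 2 to 7. None of the single values followed over these settings changed direction. They covered the PB response of all members, but not every member between the strains or in the interaction. Many of the DHSs named here were not among them. Among single values, 12 for C57BL/6 DHSs (196 kept their side of the thresholds), 9 for B6C3F1 DHSs (198 kept it and 1 newly passed), 5 for DHSs between the strains (70 kept it) and 1 for members between vehicle mice (47 kept it) no longer passed. The cause was not tested in any of these.

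No paired analysis was possible because vehicle and PB-treated mice are different animals with no animal number in common. With 0 or 1 vehicle read, the fold of Cyp2c66 is limited by depth, B6C3F1 vehicle mouse 3 has the fewest reads in DHSs, and near-identical copies limit how well reads of Cyp2c65 and Cyp2c66, and of Cyp2c37, Cyp2c50 and Cyp2c54, can be told apart.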
